A study of Rattus norvegicus with 6 samples.

Results

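Nitrogen disposal and amino acid breakdown were followed in RNA of rat liver endothelial cells through 9 genes chosen by name: Cps1, Otc, Ass1, Asl and Arg1 of the urea cycle, Glul and Gls2 of glutamine metabolism, and Tat and Hpd of tyrosine breakdown. Members were the probe sets whose only gene symbol in the platform annotation was one of these. All 9 genes, of 10411 with a probe set of their own, had at least 1, with 2 for Cps1 and Asl and 3 for Glul, which made 13 of the 15866 probe sets on the array. All 13 were bright enough to be tested, among 9519 tested in all. The cells came from Wistar rats, 3 arrays from control rats and 3 from rats that had undergone a protocol inducing cirrhosis, described in the labels as adult males. They were taken from collagenase-perfused livers by density centrifugation and capture on antibody-coated magnetic beads. The sources used here do not say how cirrhosis was induced, what the antibody bound, the age and sex of the controls or how many rats each array stands for, so p-values measure only the spread between arrays, which may be technical. One control title carries no number and is called control array 1.

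The urea cycle turns ammonia and the nitrogen of amino acids into urea. Cps1 and Otc act in the mitochondria and Ass1, Asl and Arg1 in the cytosol, mainly of hepatocytes around the portal vein. Glul, glutamine synthetase, captures the remaining ammonia in hepatocytes around the central vein, and Gls2, the liver glutaminase, releases ammonia from glutamine. Endothelial cells are known to use Ass1 and Asl for another purpose, the recycling of citrulline to arginine for nitric oxide synthesis, and Glul is made by many cell types.

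Endothelial markers were bright in both groups and hepatocyte RNA was present in both. The summed signal of 9 tested markers of sinusoidal endothelium lay between 52337 and 57656 on control and between 24951 and 29073 on cirrhotic arrays. All 9 fell. The summed signal of 29 tested hepatocyte markers lay between 54226 and 78988 on control and between 62803 and 131080 on cirrhotic arrays. Of these 29 markers 9 rose and 1 fell, 28 had their highest cirrhotic signal on cirrhotic array 3, and none of the 29 read 0 on any array. Without cirrhotic array 3, 7 rose and 2 fell, and without cirrhotic array 2, 14 rose and 1 fell. The number that rose was 5 with control array 2 left out, 4 with control array 3 left out and 4 with cirrhotic array 1 left out. Among the markers of other cells, 8 of 9 tested cholangiocyte markers rose, with sums between 1281 and 2233 on control and between 6345 and 14898 on cirrhotic arrays. Of 12 tested stellate and myofibroblast markers 9 rose, with sums between 6540 and 7283 and between 19538 and 32883. The 2 tested erythroid markers, the 1 tested neutrophil marker and 5 of 10 T and NK cell markers rose. Of all tested probe sets 12.3% were called higher and 13.2% lower. Counts of rises depend on the filter, which used the mean log2 over all 6 arrays, with a threshold at a signal of 127. Some markers whose mean log2 over control arrays lay under this threshold were tested only through their cirrhotic signals. Among the cholangiocyte markers that rose, these were Epcam, Cdh1, Cldn3, Cldn4 and Spp1. Among the stellate and myofibroblast markers that rose, they included Pdgfrb and Tagln. They are named here for that reason, and these counts of rises rest in part on the filter. Cldn3, of cholangiocytes, read 37.0, 42.7 and 24.0 in control, and the neutrophil marker between 52.7 and 118.5. Of 9 tested macrophage markers 2 rose, 1 fell and 6 did not pass, and their sums overlapped, between 4195 and 8074 and between 5591 and 12020. In RNA of a mixed preparation, fewer cells of a type and less RNA per cell cannot be told apart.

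Of the 13 probe sets, 4 were higher and 1 was lower in cirrhotic arrays. Both probe sets of Cps1, the single probe set of Tat and 1 of 2 of Asl rose, and 1 of 3 of Glul fell. Otc, Ass1, Arg1, Gls2 and Hpd did not pass the test. The test was limma's moderated test on log2(signal + 16) with Benjamini-Hochberg adjustment over the 9519 tested probe sets and a threshold of 0.05, which called 25.4% of all tested probe sets, 12.3% as higher and 13.2% as lower. The median log2 difference of the 13 was 0.09, beside -0.02 for all tested probe sets. The groups did not overlap for 6 of the 13, 5 of them higher in cirrhotic arrays, against 44.9% of all tested probe sets in either direction, 20.8% as higher and 24.1% as lower. The count of 5 called probe sets became 3 without control array 2 and 1 without control array 3. That 1 was Asl on 1367754_s_at, whose identity is uncertain, as described below.

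**Figure D1:**
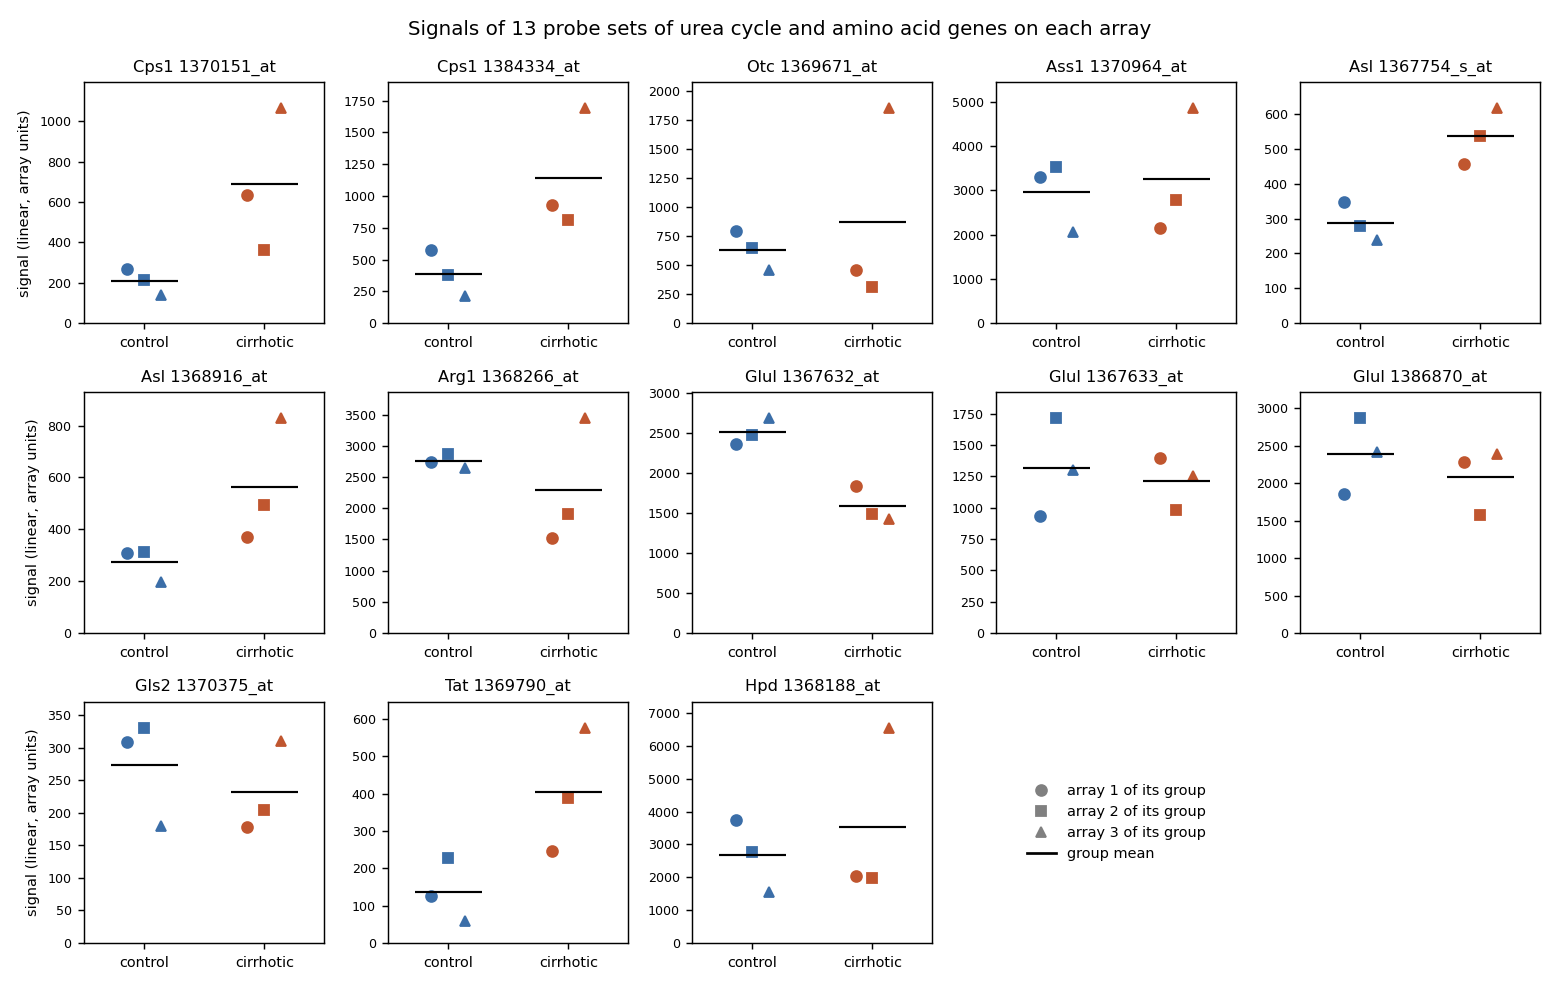
Signal of each of the 13 probe sets on each array, on linear axes that start at 0, with control arrays in blue, cirrhotic arrays in orange, a marker shape for each array number and a line at the group mean. Cirrhotic array 3 held the highest cirrhotic signal of 11 probe sets, and for Otc, Ass1, Arg1 and Hpd it alone lay above the highest control array.

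Cps1, carbamoyl phosphate synthetase, which catalyses the first and rate-controlling step of the cycle, had the largest rise among the urea cycle genes tested. Its probe set 1370151_at read 266.5, 216.1 and 141.0 on control arrays 1 to 3 and 632.5, 364.4 and 1064 on cirrhotic arrays 1 to 3. Probe set 1384334_at, annotated with another source sequence, read 577.4, 382.3 and 212.3 in control and 928.4, 808.5 and 1692 in cirrhotic arrays. On both, every cirrhotic array lay above every control array, and the spread within a group was wide, with the highest cirrhotic signal on cirrhotic array 3 and the lowest control signal on control array 3.

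The log2 difference of Cps1 was 1.56 (SE 0.37, n = 3 arrays per group, limma adjusted p = 0.0196) on 1370151_at and 1.54 (SE 0.38, limma adjusted p = 0.0227) on 1384334_at. These are 2.96-fold and 2.91-fold on the log2(signal + 16) scale, which understates changes of low signals. Mean signals were 208 ± 63.2 and 687 ± 353 (SD, n = 3 each) on the first. Without cirrhotic array 3 it was 1.19 and 1.22 and both calls held. The calls ended without control array 2 (limma adjusted p = 0.0540 and 0.0606), without control array 3 (0.0771 and 0.0672) and without cirrhotic array 1 (0.0680 and 0.0579). The difference stayed between 1.18 and 1.94 when any 1 array was left out.

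Cps1 and Tat were the members that rose on every probe set of their own. The sequence just upstream of each RefSeq start is shown for this pair. Both are given 5′ to 3′ for the 250 bases before the start in the GRCr8 build, Cps1 at chr9:76063613-76063862 and Tat at chr19:54856354-54856603, both on the plus strand, with motif matches in capitals.
Cps1: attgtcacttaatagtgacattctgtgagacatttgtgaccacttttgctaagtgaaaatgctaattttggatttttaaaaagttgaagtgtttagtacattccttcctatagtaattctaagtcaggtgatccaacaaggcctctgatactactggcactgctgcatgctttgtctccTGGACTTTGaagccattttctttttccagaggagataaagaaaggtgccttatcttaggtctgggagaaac
Tat: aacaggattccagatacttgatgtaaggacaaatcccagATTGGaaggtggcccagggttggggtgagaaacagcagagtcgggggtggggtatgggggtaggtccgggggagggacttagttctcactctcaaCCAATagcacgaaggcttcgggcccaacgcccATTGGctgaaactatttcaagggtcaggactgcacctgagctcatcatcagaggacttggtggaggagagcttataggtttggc
Capitals mark, on either strand, CAAAGTCCA in Cps1, a form of the element read by the hepatocyte nuclear factor HNF4, and CCAAT in Tat. CAAAGTCCA occurred once in the Cps1 window and in 0.338% of 33469 RefSeq promoter windows of this length, and in none of the other 9 windows of the 8 members that the table held. CCAAT occurred 3 times in the Tat window, and in 34.0% of all windows at least once. It was also in the windows of Gls2 and Glul, 4 of the 10 member windows in all. Of 4 other motifs searched, the TATA box TATAAA was found in the Ass1 window and in 12.9% of all windows, while TGTTCT (a glucocorticoid receptor half-site), TTGCGNAA (the C/EBP site) and TGACGTCA (the cyclic AMP response element), found in 17.5%, 0.729% and 1.59% of all, were in no member window. These matches describe letters only. Sequence outside the 250 bases was not searched, so a motif absent from a window may lie elsewhere near the gene.

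Otc, ornithine transcarbamylase, joins carbamoyl phosphate to ornithine in the next step. It read 792.8, 647.5 and 458.1 on control arrays 1 to 3 and 461.1, 314.4 and 1855 on cirrhotic arrays 1 to 3. Cirrhotic array 2 lay below every control array, cirrhotic array 1 close to the lowest of them and cirrhotic array 3 far above all. The log2 difference was 0.07 (SE 0.58, limma adjusted p = 0.944) with all arrays and -0.67 without cirrhotic array 3, where it did not pass either (limma adjusted p = 0.0946). Its 5.90-fold range among cirrhotic arrays was the widest of the 13 probe sets.

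Ass1, argininosuccinate synthetase, adds the second nitrogen to the cycle and is the entry to arginine from citrulline. It read 3305, 3531 and 2071 in control and 2149, 2793 and 4860 in cirrhotic arrays, ranges that overlapped. The log2 difference was 0.09 (SE 0.31, limma adjusted p = 0.860), and -0.24 without cirrhotic array 3 (limma adjusted p = 0.504).

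Asl, argininosuccinate lyase, which releases arginine, was measured by a pair of probe sets with like differences but unlike standing. Probe set 1368916_at, whose RefSeq accession belongs to Asl, read 307.4, 313.7 and 196.7 in control and 370.0, 491.9 and 829.2 in cirrhotic arrays. The groups did not overlap, and the log2 difference of 0.96 (SE 0.30, limma adjusted p = 0.0512) narrowly missed the threshold. It passed without cirrhotic array 1 (limma adjusted p = 0.0390).

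The other Asl probe set, 1367754_s_at, read 348.1, 279.8 and 237.8 in control and 457.0, 536.2 and 617.0 in cirrhotic arrays, and rose by 0.87 (SE 0.18, limma adjusted p = 0.0110). It passed with each of the 6 arrays left out. The platform annotation gives it the Asl gene identifier together with a RefSeq accession that the GRCr8 gene table assigns to Hnrnpab, a gene for an RNA-binding protein. Such a mismatch was found for 10 of the 2846 single-symbol probe sets whose accession the table holds, and for none of the other 4 member probe sets that could be checked this way. Which of the transcripts this probe set reads is therefore uncertain, and without it 4 of 12 member probe sets passed, 3 of them higher.

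Arg1, the arginase that splits arginine into urea and ornithine and is also made by some macrophages, read 2739, 2871 and 2647 in control arrays, the narrowest control group among the members. On cirrhotic arrays 1 to 3 it read 1516, 1915 and 3446. Cirrhotic arrays 1 and 2 lay below and cirrhotic array 3 above all control arrays. The log2 difference was -0.35 (SE 0.27, limma adjusted p = 0.370) with all arrays. Without cirrhotic array 3 it was -0.69 and passed (limma adjusted p = 0.0102), and without cirrhotic array 1 it was -0.10 (limma adjusted p = 0.815). All 9 tested macrophage markers had their lowest cirrhotic signal on cirrhotic array 3, and their part in these values was not tested.

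**Figure D2:**
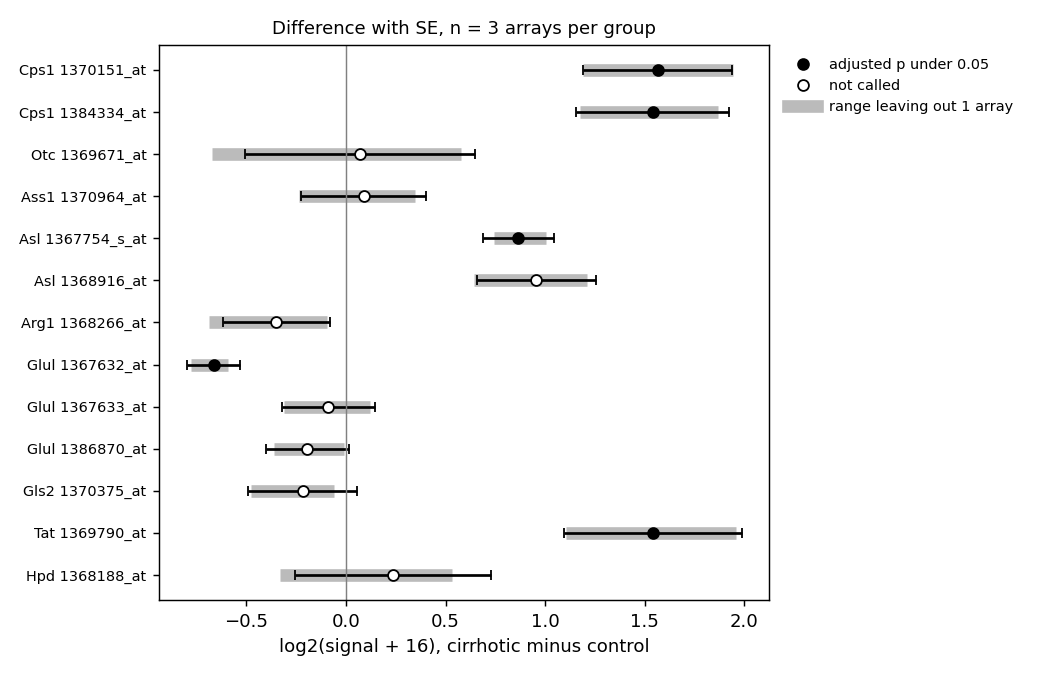
Difference between groups for each of the 13 probe sets on the log2(signal + 16) scale, cirrhotic minus control, with the standard error as whiskers, filled points for an adjusted p under 0.05 and grey bars for the range when 1 array is left out. The bars of Otc, Ass1, Hpd and Glul 1367633_at cross 0, those of Cps1, Asl, Tat and the remaining probe sets do not.

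The probe sets of Glul, glutamine synthetase, disagreed. Probe set 1367632_at read 2367, 2475 and 2691 in control and 1843, 1491 and 1424 in cirrhotic arrays, all lower than any control array. It fell by 0.66 (SE 0.13, limma adjusted p = 0.0101), or 1.59-fold. With control array 3 left out the fall was 0.61 in size and narrowly missed the threshold (limma adjusted p = 0.0501). Probe set 1386870_at read 1861, 2871 and 2422 in control and 2285, 1581 and 2388 in cirrhotic arrays, with a log2 difference of -0.19 (SE 0.21, limma adjusted p = 0.532). Probe set 1367633_at read 932.5, 1717 and 1299 in control and 1398, 984.6 and 1255 in cirrhotic arrays, with a difference of -0.09 (SE 0.23, limma adjusted p = 0.813). All 3 are annotated with the same source sequence, and the fall was seen on 1 of 3. From array to array, 1367633_at and 1386870_at kept a near constant distance, between -0.98 and -0.67 in log2, while that between 1367632_at and 1367633_at ranged from 0.18 to 1.33.

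Gls2, which feeds ammonia from glutamine into the cycle, read 308.2, 330.6 and 179.8 in control and 178.4, 205.0 and 310.4 in cirrhotic arrays. The ranges overlapped almost fully, and the log2 difference was -0.22 (SE 0.27, limma adjusted p = 0.594).

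Tat, the tyrosine aminotransferase that starts tyrosine breakdown and is a textbook target of glucocorticoids, read 125.1, 226.8 and 58.3 in control and 246.7, 387.9 and 576.4 in cirrhotic arrays. The groups did not overlap, though cirrhotic array 1 exceeded control array 2 by little. The mean log2 of its control arrays alone lay under the filter threshold, a signal of 127. Tat was therefore tested only through its higher cirrhotic signals. It rose by 1.54 (SE 0.44, limma adjusted p = 0.0385), and its direction held with each array left out, between 1.10 and 1.96. The call ended without control array 1, control array 3, cirrhotic array 2 or cirrhotic array 3 (limma adjusted p = 0.0886, 0.103, 0.0718 and 0.0841), and with all dim probe sets included in the adjustment (0.0630).

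Hpd, the dioxygenase that acts on the product of Tat, read 3751, 2774 and 1552 in control and 2042, 1973 and 6557 in cirrhotic arrays. Cirrhotic arrays 1 and 2 lay within the control range and cirrhotic array 3 above it. The log2 difference was 0.24 (SE 0.49, limma adjusted p = 0.758), and -0.33 without cirrhotic array 3 (limma adjusted p = 0.489). Tat and Hpd, neighbouring steps of the same path, thus had differences of 1.54 and 0.24, and the difference between these was not tested.

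The members shared a pattern across arrays that crossed the groups. Cirrhotic array 3 held the highest cirrhotic signal for 11 of 13 probe sets, the exceptions being 2 of Glul, and control array 3 the lowest control signal for 10 of 13, the exceptions being the 3 of Glul. Over all tested probe sets these shares were 35.1% and 34.3%. On the log2 scale, cirrhotic array 3 exceeded the mean of cirrhotic arrays 1 and 2 by a median of 0.93 over the 13 probe sets, and control array 3 lay below control arrays 1 and 2 by a median of -0.63. The mean of 26 hepatocyte markers outside the pathway lists moved the same way, by 1.04 on cirrhotic array 3 and -0.43 on control array 3. Its mean log2 level was 10.27 in control and 10.98 in cirrhotic arrays, a difference of 0.71 (two-sided exact permutation p = 0.2, n = 3 per group, where 0.1 is the smallest p possible).

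**Figure D3:**
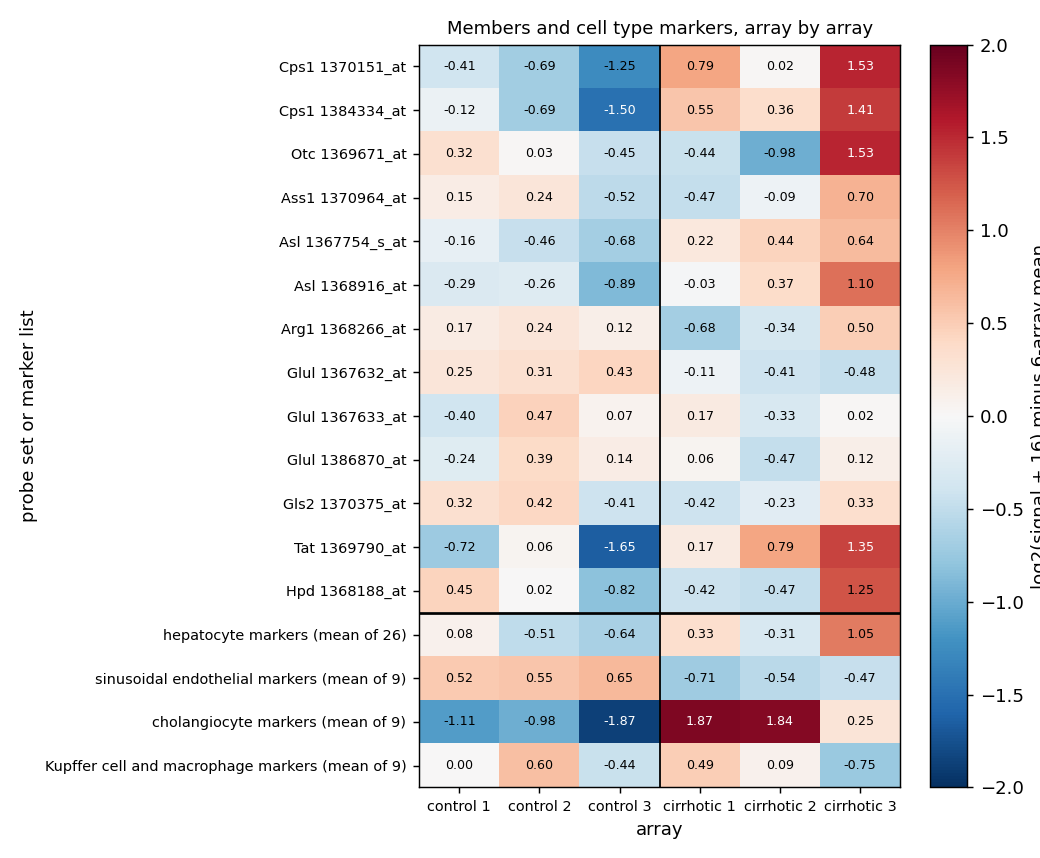
Each cell gives log2(signal + 16) on an array minus the mean of its row over the 6 arrays, for the 13 probe sets above the line and for the mean of 4 marker lists below it, with red for higher and blue for lower. The hepatocyte marker row rises to 1.05 on cirrhotic array 3 beside 1.53 for Otc and 1.25 for Hpd, while the cholangiocyte row, at 0.25, and the macrophage row, at -0.75, are lowest there among the cirrhotic arrays.

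The members were also set against the hepatocyte markers of the same array. The mean of these markers was itself 0.71 higher in cirrhotic arrays. A probe set with no plain difference therefore reads below 0 by that amount. Subtracting that mean left Cps1 higher in cirrhotic arrays by 0.85 on 1370151_at and 0.83 on 1384334_at, with no overlap between groups. Tat was higher by 0.83 with overlap, and Asl differed by 0.15 and 0.25. Arg1 was lower by this measure (-1.06), as were Gls2 (-0.93) and Glul on 1367632_at (-1.38), each without overlap. Their plain differences were -0.35, -0.22 and -0.66. Otc, Ass1 and Hpd differed by -0.64, -0.62 and -0.48, and the remaining Glul probe sets by -0.80 and -0.90, all with overlap. Leaving out 1 array moved Tat between 0.48 and 1.32, Otc between -1.04 and -0.41 and Glul on 1367633_at between -1.24 and -0.49. With the median of the markers as reference, Ass1 (-0.85) and Glul on 1386870_at (-1.13) did not overlap either. For the 5 probe sets without overlap the two-sided exact permutation p was 0.1, the smallest that 3 against 3 arrays allow, and 0.26 adjusted over the 13. The share of all tested probe sets without overlap by this measure was not computed. On plain values that share was 44.9%. The markers used are not fixed points, since Apoa1, the main protein of high-density lipoprotein, rose by 2.59 (SE 0.43) and Cyp2c11, a male-specific cytochrome P450 singled out after its value was seen, fell by 2.26 (SE 0.42), while Ttr and Alb differed by 0.17 and 0.20 and did not pass. The part of hepatocyte RNA in the plain differences was not tested further.

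The wider pathways were read from 10 lists of amino acid breakdown and nitrogen disposal, with 1 probe set per gene, the brightest. Of 75 tested genes, members included, 8 rose and 2 fell, or 13.3%, beside 25.4% of all tested probe sets. Their median log2 difference was 0.12. Without the members, 5 of 66 rose and 2 fell. In the urea cycle list 2 of 7 genes rose, Cps1 and Asl, the latter on the probe set of uncertain identity. The mitochondrial ornithine carrier Slc25a15 differed by 0.85 (SE 0.32, limma adjusted p = 0.0844) and the aspartate-glutamate carrier Slc25a13 by 0.12 (limma adjusted p = 0.774).

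Among glutamine and glutamate genes 1 of 6 rose. This was Slc38a4, a liver transporter of neutral amino acids. It read 159.7, 116.5 and 105.3 in control and 364.1, 311.7 and 511.8 in cirrhotic arrays. It rose by 1.51 (SE 0.22, limma adjusted p = 0.00303), with each array left out as well. The mean log2 of its control arrays alone lay under the filter threshold, a signal of 127, so it was tested only through its cirrhotic signals. Glud1, glutamate dehydrogenase, differed by 0.74 (SE 0.23, limma adjusted p = 0.0512). In the phenylalanine and tyrosine list Tat alone rose among 5 tested genes. Its other members Fah, Qdpr and Gstz1 differed by 0.10, 0.16 and -0.37. None of 6 tryptophan, 2 histidine and 3 lysine genes passed, among them Ddc, aromatic amino acid decarboxylase (0.73, SE 0.43, limma adjusted p = 0.251), and Hal, histidine ammonia-lyase (-0.74, SE 0.29, limma adjusted p = 0.102).

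In the remaining lists few genes passed. Mat2a, the methionine adenosyltransferase of tissues other than adult liver, fell by 0.98 (SE 0.20, limma adjusted p = 0.0112), which did not pass with control array 3 left out (0.0520), and was the only one of 14 methionine and cysteine genes to pass. Among 17 branched-chain amino acid genes the aminotransferases Bcat1 and Bcat2 rose by 0.74 and 0.76 and the phosphatase Ppm1k, which activates branched-chain breakdown, fell by 0.63. Bcat1 read 102.4, 120.0 and 100.1 in control, under the filter threshold of 127, and was tested only through its cirrhotic signals. Aldh18a1, which makes the precursor of proline and ornithine, rose by 0.81, and Shmt2, a mitochondrial enzyme of serine and glycine exchange, by 0.57. The calls of these 5 held in 1 to 3 of 6 fits with an array left out. In those fits their limma adjusted p reached 0.0915 for Bcat1, 0.130 for Bcat2, 0.0799 for Ppm1k, 0.0863 for Aldh18a1 and 0.161 for Shmt2.

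**Figure D4:**
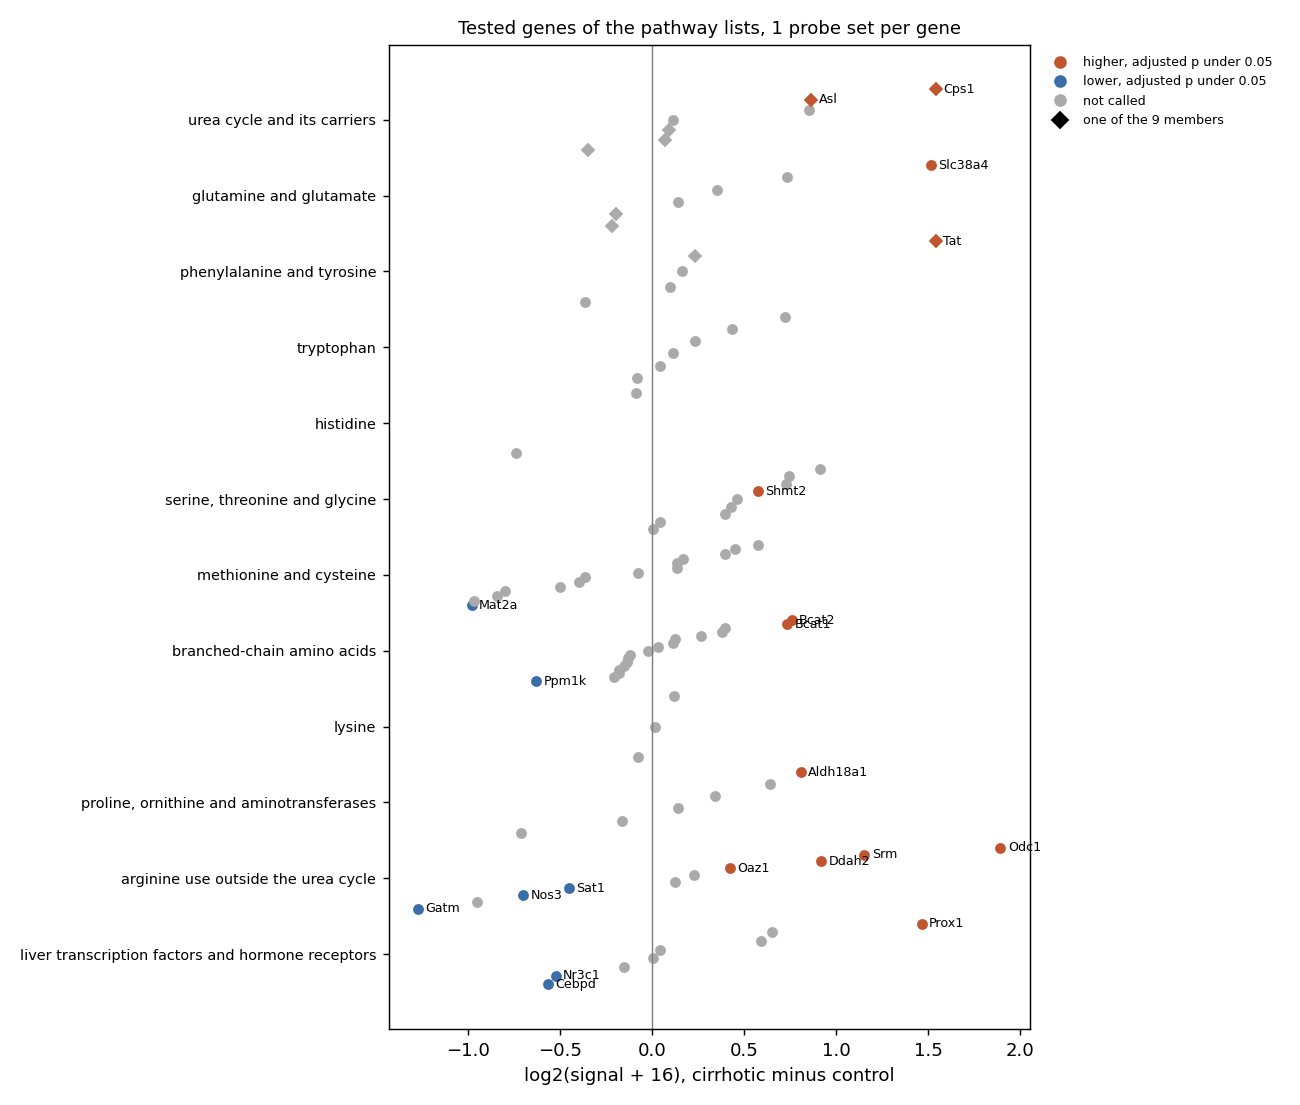
Difference between groups on the log2(signal + 16) scale, cirrhotic minus control, for every tested gene of 12 pathway lists, 1 point per gene, orange for higher and blue for lower at an adjusted p under 0.05, grey for not called and diamonds for the members. Points are spread vertically within a list by rank only, and Cps1, Tat and Slc38a4 lie between 1.51 and 1.54.

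The direction of these pathways turned with the arrays used. Cirrhotic array 3 held the highest cirrhotic signal for 65 of the 75 genes. Without it 5 genes rose and 11 fell, the median log2 difference turned from 0.12 to -0.18, and 47 of 75 differences were below 0, against 27 of 75 with all arrays. The background without this array was 26% of tested probe sets, 13.2% as higher and 12.8% as lower. Of the 10 genes called with all arrays 7 were called without it, among them Cps1, Asl and Slc38a4. Leaving out control array 3 also turned the median, to -0.05, with 4 genes called. Array weights turned the median to -0.08, with 44 of 75 differences below 0. It was 0.22 without control array 1, 0.28 without cirrhotic array 1 and 0.32 without cirrhotic array 2. The number called was 5 with control array 1 left out, 6 with control array 2 and 5 with cirrhotic array 1.

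Without cirrhotic array 3, 7 of the 11 falls were genes of the methionine and cysteine list, and the other 4 were Arg1, Prodh2, Gstz1 and Ppm1k. This fit has 2 cirrhotic arrays, and the genes named from it here were chosen after their values were seen. Bhmt, which remethylates homocysteine with betaine, differed by -1.45 (SE 0.32, limma adjusted p = 0.0151), against -0.84 (0.266) with all arrays. Cdo1, cysteine dioxygenase, differed by -1.26 (SE 0.22, limma adjusted p = 0.00589), against -0.80 (0.156). Mat1a, the methionine adenosyltransferase of adult liver, differed by -0.86 (limma adjusted p = 0.0176), against -0.50 (0.270), and Gnmt, glycine N-methyltransferase, by -1.70 (limma adjusted p = 0.0467), against -0.97 (0.334). With all arrays 1 of 14 genes of this list fell.

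Arginine also serves polyamines, creatine and nitric oxide. Of 10 tested genes of these uses 4 rose and 3 fell, beside 25.4% of all tested probe sets called in either direction, and 2 rose and 1 fell with control array 3 left out. Odc1, ornithine decarboxylase, which draws on the ornithine released by arginase, read 961.1, 969.7 and 1127 in control and 4053, 4313 and 3188 in cirrhotic arrays. It rose by 1.89 (SE 0.15, limma adjusted p = 0.000442), and Srm, spermidine synthase, by 1.15 (SE 0.15, limma adjusted p = 0.00164). Srm read 121.2, 123.8 and 120.7 in control, under the filter threshold of 127, and was tested only through its cirrhotic signals. Ddah2, another of the 4 that rose, is named here for the same limit. It read 152.0, 86.6 and 84.6 in control, with a mean log2 under that threshold. Its call held in 3 of 6 fits with an array left out. Gatm, the arginine-using first enzyme of creatine synthesis, read 2771, 2208 and 2640 in control and 946.1, 1009 and 1173 in cirrhotic arrays and fell by 1.27 (SE 0.14, limma adjusted p = 0.00101). The calls of Odc1, Srm and Gatm held with each array left out. Nos3, the endothelial nitric oxide synthase, fell by 0.70 (SE 0.14, limma adjusted p = 0.0111), which did not pass with control array 3 left out (0.0509). It is 1 of 13 tested pan-endothelial markers, of which 12 fell. The summed signal of this list lay between 19317 and 20407 in control and between 20064 and 21931 in cirrhotic arrays, and 4 of its 10 genes peaked on cirrhotic array 3 among cirrhotic arrays. 

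Members were also placed by liver zone. Of 14 tested genes known from the periportal zone 5 rose, beside 12.3% of all tested probe sets, and none fell. These were the members Cps1, Asl and Tat together with Igf1, insulin-like growth factor (1.34, SE 0.20, limma adjusted p = 0.00296), and Hsd17b13, a lipid droplet enzyme (0.94, SE 0.29, limma adjusted p = 0.0497). Without the members, which were chosen with earlier results of these data known, 2 of 8 rose. The call of Asl rests on the probe set of uncertain identity. Hsd17b13 read 105.5, 72.8 and 116.0 in control, under the filter threshold of 127, and was tested only through its cirrhotic signals. The same holds for Tat. With control array 3 left out 2 rose and 1 fell, and with cirrhotic array 3 left out 3 rose and 1 fell. The call of Hsd17b13 held in 1 of 6 fits with an array left out. The median difference of the list was 0.62. Among 7 tested pericentral genes, Glul on its brightest probe set included, none passed, and their median difference was 0.63. On another of its 3 probe sets, 1367632_at, Glul was called lower (-0.66, limma adjusted p = 0.0101). The 4 other pericentral genes with the smallest p were Oat (0.64), Gstm1 (0.63), Ahr (-0.47) and Cyp7a1 (0.77). All 14 periportal and all 7 pericentral genes had their highest cirrhotic signal on cirrhotic array 3. The median of the hepatocyte list was 0.70.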

How the data were processed

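For each sample the authors deposited 1 linear intensity per probe set of the Affymetrix Rat Expression 230A array. The summary software is not given in the sources used here. The mean signal without the lowest and highest 2% lay between 399.2 and 399.6 on all arrays, so the deposited scaling was kept. A scaled signal gives a transcript in proportion to all others measured. The arrays' number limits the precision.

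Values were used as log2(signal + 16), 16 being the 10th percentile of all values. Control probe sets (57) were removed, as were the 6347 dimmest, which are 40% by mean. The comparison used two-sided tests in limma 3.58.1 under R 4.3.3, with lmFit and a variance trend in eBayes. The fit was checked on simulated data. Of 15866 probe sets 12783 had 1 gene symbol, 312 several and 2771 none, from the supplied platform annotation. A list's gene was read on its brightest probe set. Genes named are the members, up to 4 others of each pathway list with the smallest p, the markers Alb, Apoa1 and Ttr, up to 3 of each marker list, and 3 tested genes most like each member. Exceptions are named as such. Members and lists were chosen with earlier results of these data known. No 2 arrays shared more than 47 values. Promoter sequences are RefSeq's, build GRCr8, and 8 of 9 members matched. Alternatives covered scaling, pseudocount, filter, variance model, array weights, probe set suffixes, a block for array number, and leaving out each array.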

Additional observations from a re-analysis of the deposited data

How the results depend on the processing

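With median centring, quantile normalization, other pseudocounts (1 and 126), or no variance trend, 5 member probe sets passed. With a filter at 60%, which left out Tat and Gls2, 5 of 11 passed, and without probe sets with shared-sequence suffixes, which left out Asl on 1367754_s_at, 5 of 12. Both include Asl on 1368916_at. Without a filter 4 passed and with array weights 6. All probe sets called rose from 2421 to 3772 and calls among the 75 pathway genes from 10 to 19 with array weights. Leaving out 1 array gave 1341 to 2472 calls in all, 1 to 5 among member probe sets and 4 to 16 among the pathway genes. Correlations of deviations from the group mean were 0.02, -0.01 and -0.16 for arrays with the same number in their titles. For arrays with different numbers they lay between -0.22 and 0.22. With 3 arrays per group these values cannot decide whether the numbers pair the arrays. With array number as a replicate block 1948 probe sets, 3 member probe sets and 6 pathway genes passed, and Cps1 on 1384334_at (limma adjusted p = 0.0507) and Tat (0.0602) did not.

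Of the 8 member probe sets that did not pass, those of Otc, Ass1 and Hpd and 1 of Glul changed sign in some alternatives. The difference of Otc was -0.0069 with median centring, -0.31 with array weights, -0.14 without control array 3 and -0.67 without cirrhotic array 3, and up to 0.58 without another array. That of Ass1 was -0.25, with weights, and -0.15 and -0.24 without the same arrays, with up to 0.35 without another, and that of Hpd -0.20, -0.11 and -0.33, with up to 0.53. Glul on 1367633_at was at 0.15 with weights, 0.12 without control array 2 and 0.05 without cirrhotic array 2, and down to -0.31 without control array 1. Relative to the hepatocyte markers, Asl on 1367754_s_at turned to -0.072 with their median as reference and to -0.18 without cirrhotic array 2 (up to 0.40 without another), where 1368916_at turned to -0.033 (up to 0.49). The cause was not tested for any of these. Arg1 passed with array weights (-0.67, limma adjusted p = 0.0354), and Asl on 1368916_at with the filter at 60% (0.0482) and without the suffixes (0.0498). Median centring moved the median of all tested probe sets from -0.02 to -0.10. Signal over background limits dim genes: the highest of 27 bacterial control probe sets read between 21.7 and 49.9 on an array, under every member signal.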

Other observations

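Of 8 tested liver transcription factors and hormone receptors, 1 rose and 2 fell, beside 25.4% of all tested probe sets called in either direction. Prox1, a factor of hepatocytes and of lymphatic endothelium, rose by 1.47 (SE 0.22, limma adjusted p = 0.00322), with each array left out as well. Nr3c1, the glucocorticoid receptor, fell by 0.52 (SE 0.13, limma adjusted p = 0.0236) and Cebpd, an inducible factor of the acute phase, by 0.56 (SE 0.17, limma adjusted p = 0.0471), calls that held in 2 and 1 of 6 fits with an array left out, with limma adjusted p up to 0.0920 and 0.156. Foxa2, a factor of liver identity, differed by 0.65 (SE 0.20, limma adjusted p = 0.0501). Foxa2 read 125.6, 96.6 and 94.0 in control, under the filter threshold, and was tested only through its cirrhotic signals. These were 140.2, 176.6 and 211.4. A further 9 factors and receptors of this list fell under the filter on the mean log2 over all 6 arrays and were not tested. Not all were dim on every array. Onecut1, singled out after its values were seen, read 82.3, 84.7 and 24.4 in control and 181.1, 347.3 and 144.9 in cirrhotic arrays.

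The tested genes whose log2 signals over the 6 arrays were most like a member's differed from member to member. For Hpd they were Aldh4a1, an enzyme of proline breakdown, Akr1c14 and Uox, urate oxidase, with Pearson's r between 0.990 and 0.995. For Otc they were Haao, of tryptophan breakdown, Gbe1 and Nme3, with r between 0.993 and 0.995. For the brightest Glul probe set they were Utrn, B2m and Clic4, with r between 0.981 and 0.995. For Cps1 they were Cox7c, Thtpa and Msmo1 (0.995 to 0.996), for Arg1 Rbks, Msra and Srpk2 (0.974 to 0.979), and for Ass1 Carhsp1, Aldh6a1 and Pheta1 (0.984 to 0.990). With 9519 probe sets and 6 arrays that share their group structure, values this high are a description only.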
